A study of Mus musculus with 4 samples.

Results

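Ccl21a-high medullary thymic epithelial cells (mTECs) in which neither Mgp nor Gpx3 was detected were described in the 4 droplet-based scRNA-seq libraries of the study. A cell was a member if it held 200 genes or more, no more than 25% mitochondrial UMIs, at least 100 UMIs of Ccl21a per 10000, at least 1 UMI of Krt5, and 0 UMIs of both Mgp and Gpx3. A member also had at most 1 of 6 cell cycle genes detected (Mki67, Top2a, Cdk1, Ube2c, Birc5 and Pclaf) and at most 2 UMIs of 5 T cell genes (Trbc2, Cd3d, Cd3e, Cd3g and Lck) together. These measured values chose the members, so the levels of these genes in them are a description. The rule found 1286 of 28055 cells, namely 309 of 10218 in WT-Control and 784 of 7164 in WT-RANKL-Ab, with 138 of 8591 in Cd40-/- Control against 55 of 2082 in Cd40-/- RANKL-Ab.

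CCL21 is the chemokine with which medullary epithelium draws CCR7-bearing, positively selected thymocytes out of the cortex. The mTECs that make it carry the basal keratins KRT5 and KRT14 and are regarded as a separate medullary population from AIRE+ mTECs, which display tissue-restricted self-antigens. RANK and CD40 are receptors of the TNF receptor family that signal through NF-kB and are known for sustaining AIRE+ mTECs. Mgp encodes matrix Gla protein, an inhibitor of calcification, and Gpx3 a secreted glutathione peroxidase.

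TECs were sorted from C57BL/6 thymi as EPCAM+ cells without CD45 and TER119. WT-Control mice received a control IgG, WT-RANKL-Ab mice an antibody that neutralizes the RANK ligand, and CD40-deficient Cd40-/- mice received the same control IgG (Cd40-/- Control) or antibody (Cd40-/- RANKL-Ab). The dose was 5 mg/kg under the skin at 4 weeks of age, and thymi were taken 2 weeks later, at 6 weeks. Each condition is 1 library from a pool of 3 mice, so no condition has a replicate, no test between conditions was possible, and a difference between libraries cannot be told apart from one between pools. All intervals below are exact 95% intervals and cover counting error only.

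The libraries held 10590, 7446, 9118 and 2099 barcodes, and the cells kept had median depths between 6086 and 7622 UMIs. Where 4 values follow each other, the WT libraries come before the Cd40-/- ones and, within each genotype, Control comes before RANKL-Ab. Members had medians of 6102, 6401, 4464.5 and 7586 UMIs and of 2176, 2403.5, 1801 and 2652 genes per cell. Members of Cd40-/- Control were thus the shallowest, and those of Cd40-/- RANKL-Ab the deepest and the fewest. Of their barcodes, 1 occurred in both WT libraries and 0 in any other pair of libraries. Levels are counts per 1000000 UMIs (CPM) of all members of a library summed. Cd40, the gene deleted in the Cd40-/- mice, was at 49.3 CPM for WT-Control, 33.6 for WT-RANKL-Ab, 7.01 for Cd40-/- Control and 7.62 for Cd40-/- RANKL-Ab, the Cd40-/- values resting on 5 and 3 UMIs. It was lower in both Cd40-/- libraries than in both WT libraries. Whether the counted 3' end of the transcript lies within the deletion is not given in the sources used here.

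The members carried the markers of their label in all 4 libraries. Ccl21a (chr4:42772860-42773993 on GRCm38, minus strand, with both entries of this symbol summed because near-identical copies share reads) was at 21039 CPM for WT-Control, 21274 for WT-RANKL-Ab, 17415 for Cd40-/- Control and 20883 for Cd40-/- RANKL-Ab. Krt5 was at 1591, 2220.0, 1459.5 and 2354 CPM, and Krt14, a basal keratin that the rule did not use, at 1457, 1992, 1224 and 2247 CPM. In tuft cells, the chemosensory mimetic mTECs of the same libraries, Krt14 was at 198, 123, 149 and 45.8 CPM. Epcam, the surface antigen of the sort, was at 996, 855, 865 and 701 CPM. Members with 100 to 120 Ccl21a UMIs per 10000 numbered 33, 63, 29 and 6, and otherwise eligible cells with 80 to 100, just outside the rule, numbered 34, 47, 26 and 5. The median Ccl21a content of members was 199.7, 207, 155 and 185 UMIs per 10000.

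Markers of tuft cells, thymocytes, fibroblasts, endothelium, red cells and parathyroid were low in the members. Genes of cTECs, some of which were not low, and of AIRE+ mTECs are described further below. The 8 tuft markers summed to 112, 145, 114 and 104 CPM against 3887, 6391, 4581 and 6179 CPM in tuft cells. The 12 thymocyte markers outside the rule summed to 31.6, 40.9, 42.1 and 40.6 CPM against 15101, 12807, 12678 and 12897 CPM in thymocytes. Fibroblast markers (8 genes) summed to between 4.57 and 17.8 CPM, endothelial markers (7 genes) to between 1.40 and 4.28 CPM, and parathyroid markers (4 genes) to between 1.39 and 5.89 CPM. Red cell globins (5 genes) summed to 10.7 CPM in WT-Control and were at 0 in the other 3 libraries. Mgp and Gpx3, which the rule requires to be at 0 in members, were also counted in tuft cells, where free RNA in the droplets is a source that was not tested, with Mgp at 60.8, 40.4, 87.3 and 50.9 CPM and Gpx3 at 123, 48.5, 64.8 and 12.7 CPM, against 2084, 1671, 2785 and 2151 CPM and 1687, 1998, 1150.3 and 2016 CPM in Ccl21a-high cells with both genes.

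The share of members asks how RANKL neutralization and CD40 loss go together with the composition of the Ccl21a-high compartment. Members made up 3.02% (2.70 to 3.37) of the cells of WT-Control, 10.9% (10.2 to 11.7) of WT-RANKL-Ab, 1.61% (1.35 to 1.90) of Cd40-/- Control and 2.64% (1.996 to 3.42) of Cd40-/- RANKL-Ab. As a share of the 3017, 3210, 1640 and 981 non-cycling Ccl21a-high cells, they were 10.2% (9.18 to 11.4), 24.4% (22.9 to 25.9), 8.41% (7.12 to 9.86) and 5.61% (4.25 to 7.24). WT-RANKL-Ab held the highest share on both scales, and only within Ccl21a-high cells was Cd40-/- RANKL-Ab the lowest of the 4. The log2 ratio to WT-Control within Ccl21a-high cells was 1.25 (1.06 to 1.45) for WT-RANKL-Ab, -0.28 (-0.58 to 0.01) for Cd40-/- Control and -0.87 (-1.31 to -0.45) for Cd40-/- RANKL-Ab. Against Cd40-/- Control, the share in Cd40-/- RANKL-Ab had a log2 ratio of -0.59 (-1.06 to -0.12) within Ccl21a-high cells and of 0.72 (0.24 to 1.18) among all cells. The antibody libraries thus stood on opposite sides of their own controls within Ccl21a-high cells, higher in WT and lower in Cd40-/-.

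**Figure D1:**
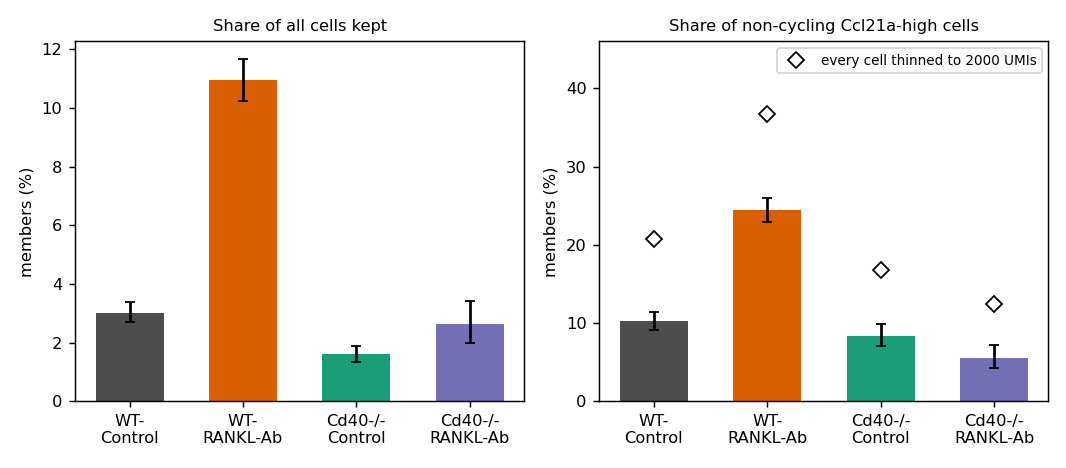
Share of members among all cells kept (left, %) and among non-cycling Ccl21a-high cells (right, %) in each library. Error bars are exact 95% intervals of counting error. Open diamonds show the share of cells with 0 UMIs of Mgp and Gpx3 after thinning to 2000 UMIs, with shallower cells left out. The WT-RANKL-Ab bar is the highest in both panels, at 10.9% and 24.4%, and the diamonds keep the order of the bars on the right.

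Whether a gene is detected in a cell depends on its depth, so Ccl21a-high cells with at least 2000 UMIs were also thinned to 2000 UMIs. Shallower cells were left out of these and all later thinned values. Of the Ccl21a-high cells, 2864 of 3017, 3104 of 3210, 1531 of 1640 and 947 of 981 remained. Those left out included 52 of 309, 56 of 784, 33 of 138 and 5 of 55 members. Of cells with both genes, 41 of 2039, 23 of 1604, 36 of 1005 and 20 of 743 were left out. After thinning, the share of Ccl21a-high cells with 0 UMIs of both genes was 20.7%, 36.7%, 16.9% and 12.5%, in the same order of libraries as without thinning. Cells with more than 20 UMIs of the 2 genes together were 30.8%, 24.2%, 31.1% and 47.5% of the Ccl21a-high cells as counted, and the median was 9, 4, 10 and 19 UMIs. After thinning, the share over 20 UMIs was 4.61%, 2.67%, 3.46% and 4.65% and the median 3, 1, 4 and 5 UMIs. WT-RANKL-Ab was the lowest on each of these measures, while the lead of Cd40-/- RANKL-Ab over WT-Control in the share over 20 UMIs was small once cells were thinned. Ccl21a-high cells with both genes made up 19.96%, 22.4%, 11.7% and 35.7% of all cells.

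Genes associated with cortical TECs (cTECs) were among the genes with the largest positive ratios in each comparison with WT-Control. Psmb11 (chr14:54621433-54629556 on GRCm38), the catalytic subunit of the thymoproteasome, was at 5.89 CPM for WT-Control, 115 for WT-RANKL-Ab, 95.3 for Cd40-/- Control and 482 for Cd40-/- RANKL-Ab. Prss16, a thymus-specific serine protease, was at 30.5 CPM for WT-Control, 171 for WT-RANKL-Ab, 404 for Cd40-/- Control and 802 for Cd40-/- RANKL-Ab. Tbata, a gene of thymic and testicular cells, was at 353 CPM for WT-Control, 2245 for WT-RANKL-Ab, 1767 for Cd40-/- Control and 5667 for Cd40-/- RANKL-Ab. Ccl25, the ligand of CCR9, was at 31.6 CPM for WT-Control, 379 for WT-RANKL-Ab, 604 for Cd40-/- Control and 1325 for Cd40-/- RANKL-Ab. For all 4 genes WT-Control was the lowest and Cd40-/- RANKL-Ab the highest of the libraries. Foxn1, the transcription factor that sets up thymic epithelial fate, was at 37.5 CPM for WT-Control, 73.7 for WT-RANKL-Ab, 40.7 for Cd40-/- Control and 114 for Cd40-/- RANKL-Ab, with Cd40-/- Control close to WT-Control. In cTECs, by comparison, Psmb11 stood at 1975, 2425, 2266 and 2533 CPM and Tbata at 10090.5, 14056, 13439.7 and 13588 CPM, above the members in each library. The cTECs were picked by their UMIs of Psmb11 and Prss16, so their high Psmb11 follows from that choice.

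Of the 5 cTEC-associated genes that the study names, 5 were over 1.5-fold higher in WT-RANKL-Ab than in WT-Control (median log2 ratio of 2.64, with 10 CPM added to each value), against 5.53% of the 8268 genes compared. In Cd40-/- Control 4 of 5 were over 1.5-fold higher (median of 2.73, background of 14.1%), and in Cd40-/- RANKL-Ab 5 of 5 (median of 4.33, background of 17.4%). Against Cd40-/- Control, 5 of 5 were over 1.5-fold higher in Cd40-/- RANKL-Ab (median of 1.29, background of 11.8%). The study named these 5 genes from bulk RNA-seq of sorted mTECs low in MHC class II, a separate measurement of the same conditions. It then reported cTEC-associated genes as higher in CCL21+ mTECs of the present Cd40-/- RANKL-Ab library. Their direction here is therefore not independent of that report. Members were selected on their counts of Ccl21a, Krt5, Mgp, Gpx3 and the cell cycle and T cell genes, and not on these 5 genes. The log2 ratio of Psmb11 to WT-Control was 4.28 (3.43 to 5.29) for WT-RANKL-Ab, 4.02 (3.09 to 5.08) for Cd40-/- Control and 6.36 (5.48 to 7.38) for Cd40-/- RANKL-Ab. These 3 comparisons share the WT-Control library, in which Psmb11 rested on 11 UMIs. With at least 200 Ccl21a UMIs per 10000, the ratio of Psmb11 in Cd40-/- Control turned to -0.19 (10 CPM added) and the median of the 5 genes there was 0.69. For Tbata the ratios were 2.67 (2.56 to 2.78), 2.32 (2.19 to 2.46) and 4.01 (3.88 to 4.13), and for Foxn1 0.97 (0.60 to 1.36), 0.12 (-0.56 to 0.76) and 1.61 (1.03 to 2.17).

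The longer list of 15 cTEC genes, 11 of them compared, was also set against WT-Control. In the usual order of libraries, 9, 9 and 11 genes were over 1.5-fold higher, with medians of 0.82, 1.86 and 1.97. Over all genes compared, 5.53%, 14.1% and 17.4% were higher. With Cd40-/- Control as the reference, 8 of 11 were higher in Cd40-/- RANKL-Ab (median of 0.98, background of 11.8%). Among the genes of this list, Ctsl, the protease cathepsin L, was at 1480.4, 2233, 4543 and 5398 CPM. These Ctsl levels depended on a few members rich in Psmb11 and Prss16, and levels without them are given further below. Cxcl12, a chemokine for early thymocytes, was at 24.6, 59.8, 147 and 234 CPM, and Slc46a2, a solute carrier, at 352, 498, 156 and 787 CPM. Slc46a2 was lower in Cd40-/- Control than in WT-Control, with a log2 ratio of -1.18 (-1.48 to -0.89). Outside the lists, Crip3, a thymic LIM protein, was at 44.5, 524, 293 and 1041 CPM and Slc22a7, an organic anion transporter, at 2.14, 57.6, 18.2 and 196 CPM. Stmn2, a microtubule-binding stathmin, was at 108, 535, 33.6 and 424 CPM, higher in both antibody libraries and, like Slc46a2, lower in Cd40-/- Control than in WT-Control. In cTECs, Stmn2 stood at 25.5, 61.6, 0.865 and 8.96 CPM, below the members in every library.

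**Figure D2:**
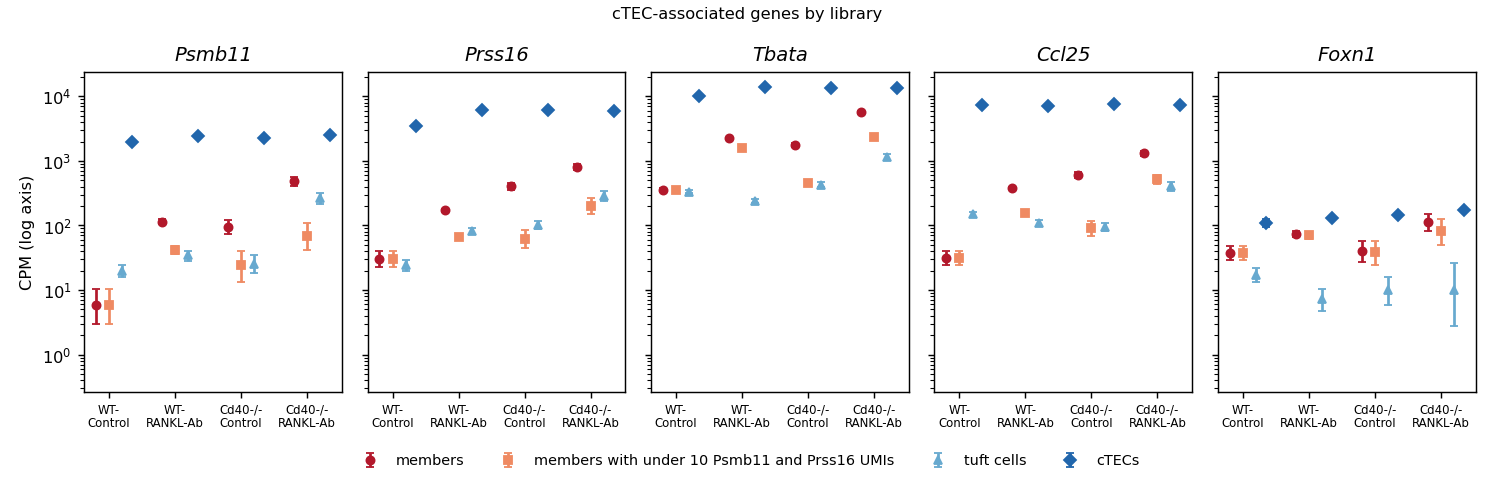
Levels (CPM, log axis) of 5 cTEC-associated genes in each library, in all members, in members with under 10 UMIs of Psmb11 and Prss16 together, in tuft cells and in cTECs, with exact Poisson 95% intervals. In Cd40-/- RANKL-Ab, Psmb11 lies at 482 CPM in members, 267 in tuft cells and 2533 in cTECs.

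These UMIs were concentrated in few members. Of the UMIs of Psmb11 and Prss16, the 5 richest members held 23.5%, 23.7%, 72.2% and 59.1%. Members with at least 10 of these UMIs numbered 0, 33, 8 and 13, which is 0%, 4.21%, 5.80% and 23.6% of the members. The 0 of 309 in WT-Control has an exact upper limit of 1.19%. Their median depths were 8023, 9423 and 11138 UMIs in the 3 libraries that held them, against 6327, 4377.5 and 6007.5 UMIs for the remaining members, and 2 of the 8 in Cd40-/- Control exceeded 20000 UMIs. Krt14 was at 829, 98.3 and 1042 CPM in them, against 2058, 1390 and 2885 CPM in the remaining members of the same 3 libraries. The 98.3 CPM of Cd40-/- Control rest on 9 UMIs. cTECs made up 1.33%, 6.95%, 6.91% and 14.6% of the cells kept. The part of droplets that hold a Ccl21a-high cell and a cTEC together in these values was not tested.

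Leaving out the members with at least 10 of these UMIs could only lower the ratios of Psmb11 and Prss16, since WT-Control held none, so the size of what remained is given as a description. Psmb11 then had log2 ratios of 2.83 (1.96 to 3.86), 2.03 (0.81 to 3.30) and 3.57 (2.41 to 4.80), Tbata 2.19 (2.08 to 2.31), 0.37 (0.17 to 0.57) and 2.74 (2.58 to 2.90), and Crip3 3.19 (2.87 to 3.52), 0.38 (-0.23 to 0.96) and 3.25 (2.83 to 3.68). For the 5 genes of the study, the median was then 1.71, 0.84 and 2.39. Of the 9 ratios of Psmb11, Tbata and Crip3, those of Tbata and Crip3 in Cd40-/- Control were the nearest to 0. Ctsl then had log2 ratios of 0.09 (0.03 to 0.15), 0.20 (0.10 to 0.30) and 1.15 (1.04 to 1.26). Its levels in the remaining members were 1577, 1702 and 3289 CPM, against 1480.4 CPM in WT-Control. Ctsl in WT-RANKL-Ab and Cd40-/- Control was thus close to WT-Control outside the members left out. Tbata was also spread over more members: 21, 215, 14 and 23 members held at least 10 of its UMIs, and 1, 95, 6 and 16 members at least 10 of Crip3. This alternative was chosen after seeing the data.

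The same genes were also read in tuft cells, which should lack them. There, Psmb11 was at 19.9, 34.3, 25.5 and 267 CPM, Prss16 at 24.1, 82.0, 102 and 289.9 CPM, Tbata at 333, 241, 431 and 1152 CPM and Ccl25 at 149.5, 109.8, 95.1 and 409 CPM, and each was highest in the library with the highest share of cTECs. After thinning to 2000 UMIs, 1.56%, 10.4%, 7.62% and 30.0% of members and 1.17%, 3.33%, 2.95% and 9.62% of tuft cells held a Psmb11 UMI. For Tbata these shares were 29.6%, 60.0%, 33.3% and 64.0% of members, 16.9%, 13.1%, 19.4% and 25% of tuft cells and 14.6%, 22.6%, 22.4% and 23.9% of Ccl21a-high cells with Mgp and Gpx3. Median depths before thinning were 7005, 6116, 5668 and 6773 UMIs in tuft cells. In WT-Control, the level of Psmb11 in members was below that of tuft cells, which should lack the gene, while Tbata was close to tuft cells in level but was detected in a higher share of members. Within each library, Tbata was found in a higher share of members than of either other set of cells.

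**Figure D3:**
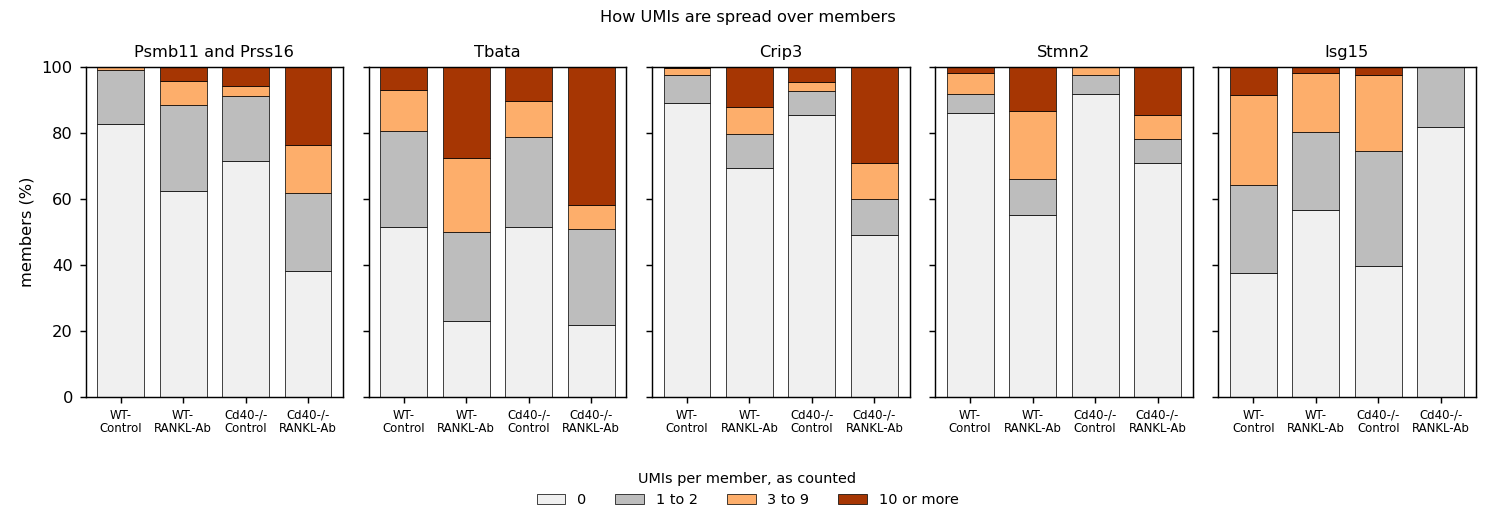
Share of members (%) in each library with 0, 1 to 2, 3 to 9 and 10 or more UMIs, as counted, of Psmb11 and Prss16 together, Tbata, Crip3, Stmn2 and Isg15. Members with 10 or more Tbata UMIs make up 27.4% in WT-RANKL-Ab and 41.8% in Cd40-/- RANKL-Ab, against 6.80% in WT-Control, while for Isg15 the members of Cd40-/- RANKL-Ab hold at most 2 UMIs.

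Interferon-stimulated genes (ISGs) were at the other end and were among the genes with the largest negative ratios in Cd40-/- RANKL-Ab. Isg15, a ubiquitin-like modifier, was at 513 CPM for WT-Control, 216 for WT-RANKL-Ab, 359 for Cd40-/- Control and 27.9 for Cd40-/- RANKL-Ab. Ifit3, an antiviral effector, was at 139 CPM for WT-Control, 66.5 for WT-RANKL-Ab, 154 for Cd40-/- Control and 0 for Cd40-/- RANKL-Ab. Irf7, the factor that amplifies interferon production, was at 192 CPM for WT-Control, 86.8 for WT-RANKL-Ab, 111 for Cd40-/- Control and 0 for Cd40-/- RANKL-Ab. Ifi27l2a was at 3884, 1759, 2147 and 361 CPM, and Ifit1 at 114, 38.3, 86.9 and 2.54 CPM. For each of these 5 genes WT-RANKL-Ab was below WT-Control and Cd40-/- RANKL-Ab was the lowest library, whereas Ifit3 in Cd40-/- Control lay above WT-Control. Against the floor of 3 UMIs over the library (7.62 CPM), Irf7 in Cd40-/- RANKL-Ab was at least 25.2-fold lower than in WT-Control and at least 14.5-fold lower than in Cd40-/- Control, and Ifit3 at least 18.3-fold and 20.2-fold lower. The log2 ratio of Isg15 to WT-Control was -1.25 (-1.38 to -1.12) for WT-RANKL-Ab, -0.51 (-0.72 to -0.31) for Cd40-/- Control and -4.20 (-5.21 to -3.35) for Cd40-/- RANKL-Ab.

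Interferon acts through a GAAA repeat, the interferon-stimulated response element, in the promoters of its target genes. The 250 bases before the start sites of Isg15 and Ifit3 are shown because these genes had some of the lowest ratios, and capitals mark the motif GAAANNGAAA on either strand. Both sequences come from RefSeq on GRCm38.p6 and are read 5′ to 3′ on the strand of the gene. Isg15 (chr4:156200819-156201068, minus strand) has 3 overlapping matches and Ifit3 (chr19:34583279-34583528, plus strand) 2 matches, both on the other strand and read here as TTTC repeats.
Isg15: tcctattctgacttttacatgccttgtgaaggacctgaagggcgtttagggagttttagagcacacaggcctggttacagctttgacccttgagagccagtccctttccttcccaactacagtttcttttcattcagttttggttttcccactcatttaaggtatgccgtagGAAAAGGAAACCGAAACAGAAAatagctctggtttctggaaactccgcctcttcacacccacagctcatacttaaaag
Ifit3: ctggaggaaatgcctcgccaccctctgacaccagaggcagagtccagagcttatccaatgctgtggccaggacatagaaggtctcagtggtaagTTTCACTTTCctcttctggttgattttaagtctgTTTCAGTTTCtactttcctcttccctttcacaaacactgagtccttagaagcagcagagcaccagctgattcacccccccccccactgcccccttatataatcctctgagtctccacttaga
The motif was found in 24 of 44 listed ISGs with a promoter sequence (54.5%), in 247 of 6520 genes compared (3.79%) and in 1079 of 27025 genes in all (3.99%), over windows of 300 bases that end 50 bases after the start. In the MHC class I list it was found in 5 of 18 genes. A match describes the letters of the window and no binding.

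Of the 60 ISGs listed, 51 passed the filter of a mean of at least 10 CPM. In WT-RANKL-Ab, 18 were over 1.5-fold lower and 2 over 1.5-fold higher than in WT-Control, with a median log2 ratio of -0.48, against 2.87% lower and 5.53% higher among all genes compared, whose median was 0.11. In Cd40-/- Control 4 were lower and 8 higher, with a median of 0.03, both near the background of 6.02% lower and 14.1% higher. In Cd40-/- RANKL-Ab 38 were lower and 2 higher, with a median of -1.05 (background of 8.47% lower and 17.4% higher). Against Cd40-/- Control, 43 were lower and 1 higher in Cd40-/- RANKL-Ab, with a median of -1.22 (background of 11.7% lower and 11.8% higher). Not every ISG followed this order. Ly6e, a surface protein, was at 1920.1, 1888, 1677 and 1658 CPM, within 1.5-fold in each comparison. Oasl2 was at 334, 403, 381 and 180.3 CPM and Cxcl10, a ligand of CXCR3, at 615, 229.7, 627 and 309.8 CPM. Isg20, an exonuclease, was highest in Cd40-/- RANKL-Ab, at 6.96, 18.1, 43.5 and 83.8 CPM. Cd40-/- Control members held Samd9l at 29.5, 28.8, 79.9 and 25.4 CPM and Xaf1 at 165, 66.9, 71.5 and 50.8 CPM, above and below WT-Control respectively.

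Per member, thinned to 2000 UMIs, the ISGs together had medians of 23, 14, 19 and 9 UMIs. The range from the 5th to the 95th percentile was 7 to 52.6 for WT-Control, 4 to 35 for WT-RANKL-Ab, 6 to 38.6 for Cd40-/- Control and 3.45 to 15.6 for Cd40-/- RANKL-Ab. The 95th percentile of Cd40-/- RANKL-Ab thus lay below the medians of both control libraries. In Ccl21a-high cells with Mgp and Gpx3 the medians were 36, 20, 27 and 9, higher than in members in 3 libraries and equal in Cd40-/- RANKL-Ab. ISG sums were 11469.9, 7573, 9506 and 4278 CPM in members and 5714, 5130.3, 4855 and 2365 CPM in tuft cells. Isg15 in tuft cells was at 299, 145, 127 and 28.0 CPM, so the level outside the members was also lowest in Cd40-/- RANKL-Ab. The part of free RNA in the members' ISG levels was not tested.

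**Figure D4:**
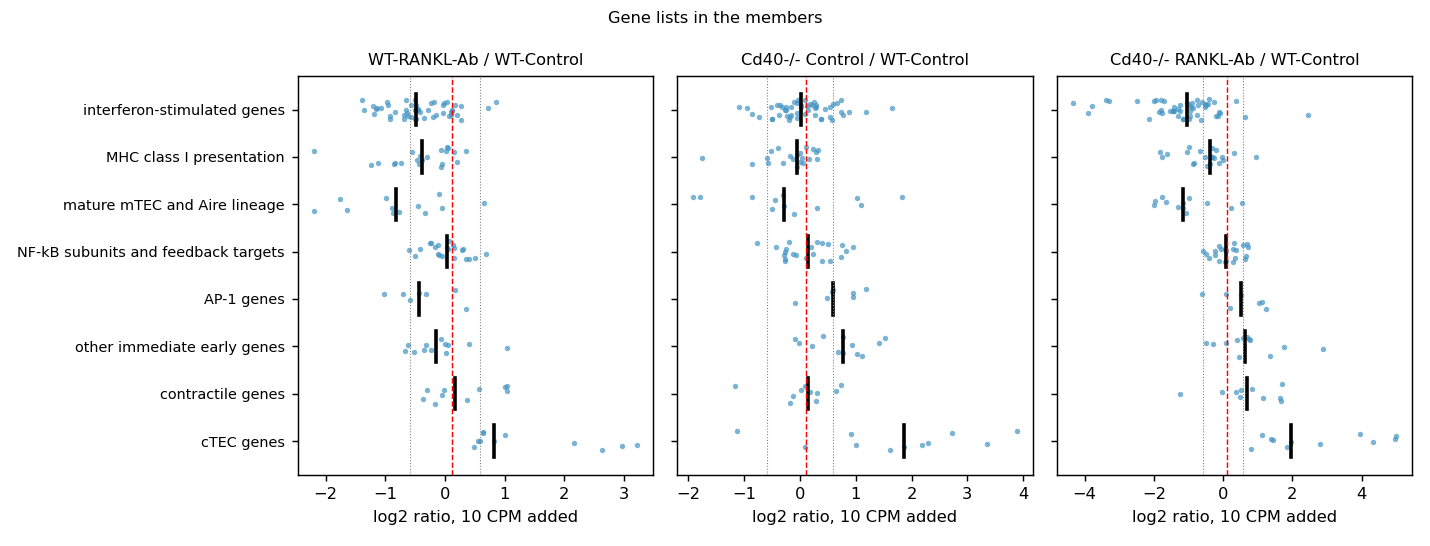
Log2 ratios to WT-Control (10 CPM added to each level) of the genes of 8 lists in members of the other 3 libraries. Points are genes, black bars list medians, dotted lines 1.5-fold and the dashed line the median of all genes compared; the bar of the ISGs lies at -0.48, 0.03 and -1.05 and that of the cTEC genes at 0.82, 1.86 and 1.97.

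Genes of MHC class I presentation had a median log2 ratio below 0 in each comparison. Over the 21 genes, 6 were over 1.5-fold lower for WT-RANKL-Ab (median of -0.38), 3 for Cd40-/- Control (median of -0.06) and 8 for Cd40-/- RANKL-Ab (median of -0.37), and 1 was higher, for Cd40-/- RANKL-Ab. Over all genes compared, 2.87%, 6.02% and 8.47% were lower. B2m, the light chain of class I molecules, was at 11374 CPM for WT-Control, 6802 for WT-RANKL-Ab, 10077 for Cd40-/- Control and 5568 for Cd40-/- RANKL-Ab, lower in both antibody libraries than in their controls. Psmb8, a subunit of the immunoproteasome, was at 339, 183, 254 and 104 CPM. H2-T23, a nonclassical class I heavy chain, was at 215, 85.0, 114 and 53.3 CPM. H2-Q4 was at 266, 50.4, 71.5 and 71.1 CPM and H2-K1 at 3471, 3531, 4074 and 2793 CPM. Reads of class I heavy chains can be split between near-identical genes, so the levels of single H2 genes are uncertain. For MHC class II genes the counts were smaller: of 10 compared, 0 were over 1.5-fold lower for WT-RANKL-Ab, 1 for Cd40-/- Control and 2 for Cd40-/- RANKL-Ab, and Cd74, the invariant chain, was at 14170.4, 14264, 12156 and 11304 CPM.

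The 18 genes of mature and AIRE+ mTECs summed to 3007, 2022, 2269 and 1549 CPM in members, against 11131, 11130.3, 7837 and 7337 CPM in Aire-positive cells, and were lower in both antibody libraries than in their controls. Of 12 genes compared, 7 were over 1.5-fold lower and 1 higher for WT-RANKL-Ab (median of -0.82), 3 lower and 3 higher for Cd40-/- Control (median of -0.29), and 9 lower and 0 higher for Cd40-/- RANKL-Ab (median of -1.16). Cd40, the deleted gene, is on this list and was among the lower genes in both Cd40-/- libraries. Over all genes compared, 2.87%, 6.02% and 8.47% were lower and 5.53%, 14.1% and 17.4% higher. Aire itself was at 21.96 CPM for WT-Control, 15.5 for WT-RANKL-Ab, 29.4 for Cd40-/- Control and 5.08 for Cd40-/- RANKL-Ab, the last resting on 2 UMIs, and its log2 ratio of -0.50 (-1.07 to 0.08) in WT-RANKL-Ab was within counting error. Ubd, a ubiquitin-like modifier, was at 1799.6, 1052, 1262 and 797 CPM. Skint10 was at 465, 247, 336 and 231 CPM and Cd52, a surface glycoprotein, at 69.6, 7.35, 33.6 and 15.2 CPM. Csn2, the self-antigen beta-casein, was at 30.0, 2.78, 22.4 and 0 CPM. Fezf2, a transcription factor for self-antigens in mTECs, was the exception and was highest in WT-RANKL-Ab, at 329, 526, 269 and 383 CPM. In Cd40-/- Control, Cd274 and Pdcd1lg2, the ligands of PD-1, were at 88.3 and 56.1 CPM against 17.7 and 20.9 CPM in WT-Control.

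Part of these mRNAs was also found outside their own cells. Aire-positive cells numbered 3235, 242, 2144 and 6. Fabp4, the gene with the largest negative ratio in WT-RANKL-Ab, was at 145, 19.9, 58.9 and 5.08 CPM in members and at 508, 219, 450.4 and 10.2 CPM in tuft cells, and Reg3g, an antimicrobial lectin, at 204, 43.9, 140.2 and 22.9 CPM in members and 826, 215, 1091 and 7.63 CPM in tuft cells. In Aire-positive cells Fabp4 was at 1123, 1328 and 1194 CPM in the libraries other than Cd40-/- RANKL-Ab. Of the 381 Reg3g UMIs in members of WT-Control, 215 came from 1 cell. The part of free RNA in the members' levels of these genes was not tested.

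Among the receptors that the study manipulates, Tnfrsf11a, which encodes RANK, was at 99.1 CPM for WT-Control, 92.3 for WT-RANKL-Ab, 91.1 for Cd40-/- Control and 68.6 for Cd40-/- RANKL-Ab. Its log2 ratio to WT-Control was -0.10 (-0.35 to 0.15), -0.12 (-0.55 to 0.29) and -0.53 (-1.17 to 0.06), so at this depth no difference was detectable. Ltbr, the lymphotoxin beta receptor, was at 27.9, 18.7, 16.8 and 38.1 CPM, and Tnfrsf12a, the receptor of TWEAK, at 24.6, 13.3, 26.6 and 45.7 CPM. Of 6 genes of this family compared, 0 passed 1.5-fold in WT-RANKL-Ab, while Cd40 was over 1.5-fold lower in both Cd40-/- libraries and Tnfrsf12a over 1.5-fold higher in Cd40-/- RANKL-Ab than in WT-Control. Between the Cd40-/- libraries, Ltbr, Tnfrsf12a and Tnfrsf21 were over 1.5-fold higher in Cd40-/- RANKL-Ab (median of 0.41, background of 11.8%), and the interval of each of these 3 ratios includes 0. Of 22 NF-kB subunits and feedback targets, 1 was higher and 1 lower for WT-RANKL-Ab, 4 higher and 1 lower for Cd40-/- Control, and 4 higher and 0 lower for Cd40-/- RANKL-Ab. Their medians were 0.04, 0.15 and 0.09, close to the median of all genes. The background was 5.53%, 14.1% and 17.4% higher and 2.87%, 6.02% and 8.47% lower. Nfkbia, the inhibitor that NF-kB itself induces, was at 992, 1014, 1063 and 906 CPM, and Relb, of the noncanonical pathway, at 156, 195, 128 and 149.8 CPM. Map3k14, the kinase NIK, was at 20.9, 39.7, 15.4 and 40.6 CPM, higher in both antibody libraries than in their controls.

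Some AP-1 and other immediate early genes were over 1.5-fold higher in the Cd40-/- members than in WT-Control. Fos was at 407 CPM for WT-Control, 324 for WT-RANKL-Ab, 795 for Cd40-/- Control and 980.1 for Cd40-/- RANKL-Ab. Atf3, a stress-induced factor, was at 91.6 CPM for WT-Control, 39.9 for WT-RANKL-Ab, 186 for Cd40-/- Control and 201 for Cd40-/- RANKL-Ab. Jun was at 1144, 763, 1609.6 and 1203 CPM, Junb at 668, 489, 627 and 957 CPM and Egr1 at 148, 100.3, 293 and 198 CPM. Of 7 AP-1 genes compared, 0 were over 1.5-fold higher and 2 lower for WT-RANKL-Ab (median of -0.44), 4 higher and 0 lower for Cd40-/- Control (median of 0.59), and 3 higher and 1 lower for Cd40-/- RANKL-Ab (median of 0.51). Of 12 other immediate early genes, 8 were higher in Cd40-/- Control (median of 0.76) and 7 in Cd40-/- RANKL-Ab (median of 0.63), with 0 lower in either. In WT-RANKL-Ab 1 was higher and 2 were lower (median of -0.15). Over all genes compared, 5.53%, 14.1% and 17.4% were higher and 2.87%, 6.02% and 8.47% lower in the order WT-RANKL-Ab, Control and RANKL-Ab of Cd40-/-. With at least 200 Ccl21a UMIs per 10000, the median of the other immediate early genes in Cd40-/- RANKL-Ab turned to -0.040 and the log2 ratio of Atf3 there to -0.91. Klf2, a factor of quiescent cells, was at 13.9, 39.1, 58.9 and 168 CPM and Ier3 at 19.8, 18.5, 50.5 and 91.4 CPM. In Cd40-/- RANKL-Ab, 5 members held 63.5% of the Fos UMIs and 79.7% of those of Atf3. Of 10 heat shock genes, 0 were over 1.5-fold higher or lower for WT-RANKL-Ab. For Cd40-/- Control 2 were higher and 1 lower, and for Cd40-/- RANKL-Ab 1 higher and 1 lower. Between the Cd40-/- libraries, 0 were higher and 5 lower (median of -0.58, background of 11.8% higher and 11.7% lower). Hspa8 was at 2471, 1947, 1471 and 1694 CPM.

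Single keratin and contractile genes differed between the antibody libraries and their controls. Krt8 and Krt18, the keratins of simple epithelium, were at 1371, 1724, 1719 and 3148 CPM and 1433, 2208, 2064 and 4626 CPM, highest in Cd40-/- RANKL-Ab. Krt15, a basal keratin, was at 23.03 CPM for WT-Control, 1.79 for WT-RANKL-Ab, 88.3 for Cd40-/- Control and 5.08 for Cd40-/- RANKL-Ab, with 9 and 2 UMIs in the antibody libraries. Krt17 was at 7808, 7279, 6309 and 6485 CPM. Among 8 keratins compared, 1 was higher and 2 lower for WT-RANKL-Ab, 1 higher for Cd40-/- Control, and 3 higher and 2 lower for Cd40-/- RANKL-Ab, against 5.53%, 14.1% and 17.4% higher and 2.87%, 6.02% and 8.47% lower over all genes compared. Acta2, smooth muscle actin, was at 569 CPM for WT-Control, 1184 for WT-RANKL-Ab, 899 for Cd40-/- Control and 1795 for Cd40-/- RANKL-Ab. Tagln, or transgelin, was at 567, 1177, 573 and 1815 CPM, and Myl9, a myosin light chain, at 95.3, 203, 118 and 333 CPM. All 3 had a log2 ratio to the matching control between 1.00 and 1.66 in Cd40-/- RANKL-Ab and between 1.05 and 1.09 in WT-RANKL-Ab. Of 10 contractile genes, 3 were higher and 0 lower for WT-RANKL-Ab (median of 0.18), beside the same background. For Cd40-/- Control 2 were higher and 1 lower (median of 0.13), and for Cd40-/- RANKL-Ab 5 higher and 1 lower (median of 0.68). In Cd40-/- RANKL-Ab, 5 members held 48.4% of the Acta2 UMIs.

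Some genes of basal adhesion were over 1.5-fold higher in the Cd40-/- libraries. Of 17 adhesion and laminin genes compared, 0 were over 1.5-fold higher for WT-RANKL-Ab (median of 0.00), 9 for Cd40-/- Control (median of 0.68) and 6 for Cd40-/- RANKL-Ab (median of 0.44), and 0 were lower in any of the 3. Over all genes compared, 5.53%, 14.1% and 17.4% were higher. Itga6, the integrin alpha chain of hemidesmosomes, was at 238, 241, 478 and 299.6 CPM, and Dst, a hemidesmosomal linker protein, at 108, 125, 223 and 262 CPM. Of 16 extracellular matrix genes, 4 were higher for WT-RANKL-Ab, 5 for Cd40-/- Control and 6 for Cd40-/- RANKL-Ab, beside the same background. Fn1, or fibronectin, was at 13.9, 38.9, 30.8 and 256 CPM, and Sparc, a collagen-binding glycoprotein, at 39.1, 32.4, 172 and 315 CPM. Dcn, or decorin, was at 94.8, 125, 177 and 267 CPM. Postn, or periostin, was at 4.82, 44.3, 2.80 and 50.8 CPM, present in both antibody libraries and near the floor in both controls.

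Among transcription factors, Pax1, a factor of the pharyngeal pouch, was at 86.2 CPM for WT-Control, 136 for WT-RANKL-Ab, 137 for Cd40-/- Control and 279 for Cd40-/- RANKL-Ab. Of 14 thymic identity factors compared, 5 were higher for WT-RANKL-Ab (Foxn1 and Pax1 among them, median of 0.27), 3 for Cd40-/- Control and 2 for Cd40-/- RANKL-Ab, against 5.53%, 14.1% and 17.4% of all genes compared. Sox4 was at 1295, 1269.9, 669 and 983 CPM, lowest in Cd40-/- Control. Hey1 and Hes1, target genes of Notch, were at 40.2, 99.7, 26.6 and 76.2 CPM and 107, 168, 82.7 and 188 CPM, and Notch1 at 52.0, 101, 50.5 and 73.6 CPM. Of 11 Notch pathway genes, 4 were higher and 0 lower for WT-RANKL-Ab (median of 0.46), 0 higher and 2 lower for Cd40-/- Control (median of -0.03), and 4 higher and 1 lower for Cd40-/- RANKL-Ab (median of 0.32), beside backgrounds of 5.53%, 14.1% and 17.4% higher and 2.87%, 6.02% and 8.47% lower. Hey1, Hes1 and Heyl were thus higher in each antibody library than in its own control, with log2 ratios of 1.52 (0.64 to 2.43), 1.18 (0.67 to 1.70) and 2.36 (0.95 to 3.99) between the Cd40-/- libraries. In the Wnt and BMP list, 2, 4 and 7 of 15 genes were higher and 2, 1 and 4 lower, beside the same backgrounds. Id3, a target of BMP, was at 236, 111, 309.9 and 104 CPM, and Wnt4, a ligand made by TECs, at 253, 246, 114 and 399 CPM.

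Among G1 regulators, Ccnd2, or cyclin D2, was at 621 CPM for WT-Control, 365 for WT-RANKL-Ab, 512 for Cd40-/- Control and 149.8 for Cd40-/- RANKL-Ab. Of 13 compared, 0 were higher and 2 lower for WT-RANKL-Ab, 2 higher and 2 lower for Cd40-/- Control, and 2 higher and 3 lower for Cd40-/- RANKL-Ab, against 5.53%, 14.1% and 17.4% higher and 2.87%, 6.02% and 8.47% lower over all genes compared. Since the rule removed cells with more than 1 cycle gene, these values describe non-cycling cells. Among 11 progenitor-associated genes, 2, 3 and 5 were higher and 2, 1 and 2 lower, beside the same background. Ly6a, or Sca-1, was at 978 CPM for WT-Control, 822 for WT-RANKL-Ab, 1117 for Cd40-/- Control and 249 for Cd40-/- RANKL-Ab, lowest in Cd40-/- RANKL-Ab with a log2 ratio to Cd40-/- Control of -2.17 (-2.48 to -1.86); it is also an interferon-responsive gene. Apoe, an apolipoprotein, was at 894, 399, 1112 and 533 CPM, lower in both antibody libraries than in their controls.

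Chemokines and cytokines had no common direction: of 13 compared, 2 were higher and 3 lower for WT-RANKL-Ab, 2 and 2 for Cd40-/- Control, and 3 and 3 for Cd40-/- RANKL-Ab, against 5.53%, 14.1% and 17.4% higher and 2.87%, 6.02% and 8.47% lower over all genes compared. Il7, the cytokine that thymocyte precursors need, was at 154 CPM for WT-Control, 372 for WT-RANKL-Ab, 229 for Cd40-/- Control and 566 for Cd40-/- RANKL-Ab, higher in each antibody library than in its control. Ccl19, which shares the receptor CCR7 with CCL21, was at 394, 425, 229 and 358 CPM. Ccl5 was at 81.9, 27.6, 64.5 and 17.8 CPM. Cxcl9, an interferon-induced ligand of CXCR3, was at 95.9, 57.6, 51.9 and 0 CPM, at least 12.6-fold lower in Cd40-/- RANKL-Ab than in WT-Control. Ccl11, or eotaxin, was at 242, 83.4, 358 and 2.54 CPM, from 1 UMI in Cd40-/- RANKL-Ab. Ccl8 was at 278 CPM in Cd40-/- Control, where 174 of 198 UMIs came from 1 cell.

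Other genes with large ratios had varied roles. Il4i1, an amino acid oxidase, was at 173, 103, 114 and 5.08 CPM. Mt2, or metallothionein 2, was at 352, 77.0, 376 and 350.4 CPM, low in WT-RANKL-Ab, and of 15 antioxidant and metallothionein genes 0 were higher and 3 lower there (background of 5.53% higher and 2.87% lower). Saa3, an acute-phase protein, was at 35.3, 0.993, 58.9 and 0 CPM, near or at 0 in both antibody libraries. Msln, or mesothelin, was at 199, 95.1, 22.4 and 17.8 CPM, and Pou2af1, a coactivator of octamer factors, at 48.2, 60.0, 5.61 and 7.62 CPM, low in both Cd40-/- libraries. Gng13, a G protein subunit, was at 60.0, 12.7, 9.81 and 0 CPM. Fxyd2, a regulator of the sodium pump, was at 69.1, 292, 481 and 871 CPM in members and 1797, 2639, 2413 and 2532 CPM in cTECs. Cox17, a mitochondrial copper chaperone, was at 121, 23.03, 21.0 and 93.9 CPM, and Rpl36, a ribosomal protein, at 1682, 471, 394 and 1036 CPM. Rpl36 showed the same order in other cells of these libraries, at 1538, 406, 393 and 872 CPM in tuft cells and 2283, 699, 544 and 1189 CPM in thymocytes.

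Across all 8268 genes, 457 were over 1.5-fold higher and 237 lower in WT-RANKL-Ab than in WT-Control, 1167 and 498 for Cd40-/- Control, and 1437 and 700 for Cd40-/- RANKL-Ab. Between the Cd40-/- libraries, 977 were higher and 968 lower. More genes passed this fold in the libraries with fewer members, where counting error is larger, so the counts are not comparable as sizes of response. The excess of higher genes rested on the scaling: with TMM factors the counts were 292 higher and 342 lower, 771 and 859, and 914 and 1125 in the same 3 comparisons with WT-Control, and 897 and 984 between the Cd40-/- libraries.

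Members were also set beside the Ccl21a-high cells of the same library that held both Mgp and Gpx3, and because the rule separates these cells, the values are a description. Of 8331 genes, 21 were over 2-fold higher in members in 4 of 4 libraries (0.252%) and 46 over 2-fold lower (0.552%). Wfdc18, a secreted WAP-domain protein, was at 12912, 8716, 18884 and 7434 CPM in members and 4424, 1974, 4445 and 1349 CPM in cells with Mgp and Gpx3. Nkx6-2, a homeobox factor, was at 49.8, 142, 79.9 and 188 CPM in members and 10.3, 9.12, 8.04 and 6.93 CPM in the others. Pvalb, or parvalbumin, was at 116, 206, 293 and 152 CPM against 33.1, 40.01, 23.2 and 18.8 CPM, and Mfng, a glycosyltransferase that modifies Notch, at 26.2, 39.9, 19.6 and 22.9 CPM against 3.26, 3.86, 1.02 and 1.08 CPM. Tmprss4, Adam8, Bok and Calml4 were higher in members as well. On the other side, Apoe was at 3759.8, 3305, 5038 and 4027 CPM in cells with Mgp and Gpx3, and Igfbp2, which binds insulin-like growth factors, at 23.6, 25.2, 44.9 and 53.3 CPM in members against 136, 232, 235 and 371 CPM. Serping1, the inhibitor of complement C1, Bcam, a laminin receptor, Cpne8, Plscr2, Anxa8 and Scn7a were lower in members too.

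Genes described above took different sides in this comparison. Ccl21a was lower in members in each library, against 27789, 31604, 23421 and 40942 CPM in cells with Mgp and Gpx3. Acta2 was at 1228, 1974, 1583 and 2742 CPM in those cells, with the same order of libraries as in members. Tbata was at 190.5, 477, 499 and 605 CPM there, below the members in each library, and its spread between libraries was narrower than in members. In Aire-positive cells, by comparison, Wfdc18 was at 1049.6, 2666, 1404 and 7184 CPM and Nkx6-2 at 115, 145, 64.4 and 208 CPM. The last of these values rest on 6 Aire-positive cells.

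**Figure D5:**
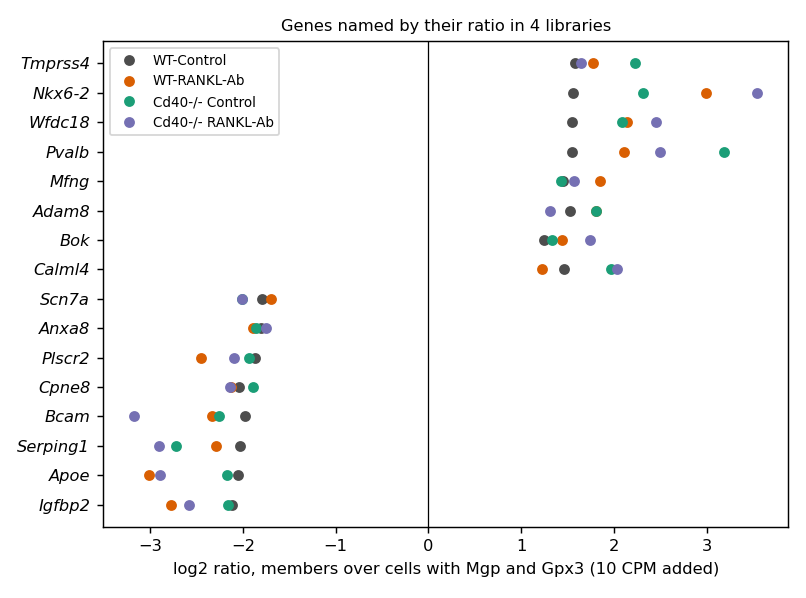
Log2 ratio of members over Ccl21a-high cells with Mgp and Gpx3 within each library (10 CPM added) for the 16 genes with the most extreme ratio in the library where it was smallest. Points are the 4 libraries; the ratio of Nkx6-2 spans the widest range, from WT-Control to Cd40-/- RANKL-Ab.

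Some genes varied strongly between members of 1 library. The Fano factor, the variance over the mean of UMIs per cell thinned to 2000, had medians over 2110 genes of 1.05, 1.05, 1.07 and 1.06. It was not adjusted for level, so abundant genes can rank high, and genes with means down to 0.1 UMI were included. Mean UMIs per member lay between 50.7 and 71.5 for Malat1 and between 0.76 and 2.22 for Fos. Wfdc18 had Fano factors of 24.0, 19.3, 52.9 and 16.3, and between 60.0% and 75.4% of members held at least 10 of its UMIs while 14, 75, 13 and 8 members held 0. Malat1, a nuclear RNA, had 30.7, 18.7, 26.8 and 18.6, and Gm42418, which overlaps ribosomal RNA, 48.6, 15.8, 27.9 and 17.4. Ctsl had 6.10, 14.6, 42.2 and 12.0, Krt17 6.88, 6.70, 6.89 and 5.77 and Fabp5, a fatty acid binding protein, 9.16, 7.59, 10.3 and 5.89. Tmsb4x, Actb, Fos and the mitochondrial genes mt-Co1, mt-Co3 and mt-Atp6 completed the 12 most uneven genes. Nkx6-2 was at 0 UMIs in 266, 593, 119 and 36 members, and Acta2 in 173, 320, 66 and 14.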

How the data were processed

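Single TECs of 4 conditions were measured by droplet-based scRNA-seq. The authors mapped the reads to mm10 with Cell Ranger and deposited UMI counts per gene and barcode, without normalization, for barcodes called as cells. Version 5.0.1 stands in the file headers and 5.1 in the submitters' processing notes, and no removal of doublets is named. The deposited counts were read here with pandas 2.3.3, matplotlib 3.10.9, scipy 1.17.1 and numpy 2.4.6 under Python 3.11.15. Barcodes with 200 or more genes and no more than 25% mt- UMIs were kept, and the rule was applied to raw counts. UMIs of the members were summed per library and scaled to CPM, with the WT-Control sum as the reference. Intervals are exact (Clopper-Pearson for shares, Poisson for CPM, conditional binomial for ratios).

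Genes with a mean of at least 10 CPM over the 4 libraries were compared, and one was counted as higher or lower past 1.5-fold of log2((CPM + 10)/(CPM + 10)), a scale that understates low genes. Ratios printed with an interval have no CPM added. With 1 library per condition, no test was run. Comparison cells were tuft cells (at least 3 tuft markers) and thymocytes (at least 5 UMIs of the T cell genes). The others were cTECs (at least 2 UMIs each of Psmb11 and Prss16) and Aire-positive cells (at least 2 UMIs of Aire). The scripts were tested on simulated data.

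Genes were named if the study names them, if they were among the 6 largest ratios each way to WT-Control (at least 50 UMIs and a mean of 20 CPM), if they led a described list by level or ratio, if they were among the 8 largest each way against cells with Mgp and Gpx3, or if they were among the 12 most uneven. Of the genes that the study names, the progenitor marker Pdpn is not described. The members and gene lists were chosen with earlier results of these data known. Alternatives were a mitochondrial limit of 13%, at least 3000 UMIs, up to 1 UMI of Mgp and Gpx3, at least 200 Ccl21a UMIs per 10000, no cells over 20000 UMIs, thinning to 2000 UMIs, totals without Ccl21a, TMM factors (edgeR 4.0.16 under R 4.3.3), the mean over cells, 1 CPM added, and other filters. Leaving out members rich in Psmb11 and Prss16 was added after seeing the data.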

Additional observations from a re-analysis of the deposited data

Results flagged for a closer look

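For 5 results, the ratio of RANKL-Ab over Control had opposite directions in WT and in Cd40-/-. With 1 library per condition, none of these differences was tested. The log2 ratio of RANKL-Ab over Control of the members' share among Ccl21a-high cells was 1.25 in WT and -0.59 in Cd40-/-. The median log2 ratio of the mTEC lineage markers was -0.25 in WT and 0.24 in Cd40-/-, and that of the TNF receptor family -0.26 and 0.41. Each of these medians rests on 6 genes, of which 0 passed 1.5-fold in WT. The 3 receptor genes past 1.5-fold in Cd40-/- had intervals that include 0. Cox17 had log2 ratios, with 10 CPM added, of -1.99 in WT and 1.74 in Cd40-/-, and Rpl36 of -1.81 and 1.37. Rpl36 had the same order of libraries in tuft cells and thymocytes, so its pattern was not particular to the members.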

How the results depend on the processing

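No paired analysis was possible because each condition is 1 library. Counting error is largest in Cd40-/- RANKL-Ab with 55 members, and genes at a few UMIs there, such as Irf7 and Ifit3 at 0, are limited by depth. A count of 0 UMIs of Mgp and Gpx3 in a member does not show that it lacks these mRNAs, and doublets were not called. The alternatives kept the direction of the member shares except that of Cd40-/- RANKL-Ab among all cells, which turned positive after thinning and with up to 1 UMI of Mgp and Gpx3. Of 36 such values 26 were within the counting interval, and 964 of 1100 list medians and 505 of 684 gene ratios stayed within the set limits. The cause of the differences below was not tested.

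The log2 ratio of the members' share in WT-RANKL-Ab to WT-Control among all cells was 2.14 with at least 3000 UMIs, 1.58 with up to 1 UMI of Mgp and Gpx3 and 1.59 after thinning, and within Ccl21a-high cells 0.98 and 0.86 under the last 2. With at least 200 Ccl21a UMIs, the ratio within Ccl21a-high cells was -0.65 for Cd40-/- Control and -1.36 for Cd40-/- RANKL-Ab, and among all cells -1.72 in Cd40-/- Control. After thinning, Cd40-/- RANKL-Ab had -0.45 within Ccl21a-high cells and 0.24 among all cells.

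Genes over 1.5-fold higher in WT-RANKL-Ab than in WT-Control numbered 692 with at least 200 Ccl21a UMIs, 292 with TMM, 1091 with 1 CPM added and 182 at a mean of 50 CPM, and those lower 360 with the mean over cells, 401 with 1 CPM added and 117 at 50 CPM. In Cd40-/- Control, 771 were higher with TMM, 1844 with 1 CPM and 392 at 50 CPM, and 1145 lower with 200 Ccl21a UMIs, 859 with TMM, 775 with the mean over cells, 864 with 1 CPM and 194 at 50 CPM. In Cd40-/- RANKL-Ab, 914 were higher with TMM and 455 at 50 CPM, and 1220 lower with 200 Ccl21a UMIs, 1125 with TMM, 1061 with 1 CPM, 1060 without a filter and 215 at 50 CPM. Between the Cd40-/- libraries, 1756 were higher with 200 Ccl21a UMIs, 1503 with 1 CPM and 282 at 50 CPM, and 620 lower with up to 1 UMI of Mgp and Gpx3, 1682 with 200 Ccl21a UMIs, 1476 without a filter and 250 at 50 CPM. Against cells with Mgp and Gpx3, 64 genes were higher and 94 lower with 1 CPM added.

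The median log2 ratio of the 5 cTEC-associated genes in WT-RANKL-Ab was 1.62 with up to 1 UMI of Mgp and Gpx3, 2.13 with 200 Ccl21a UMIs and 1.71 without the members rich in Psmb11 and Prss16. In Cd40-/- Control it was 1.55, 0.69 and 0.84 under these settings, 2.37 without cells over 20000 UMIs and 3.68 with 1 CPM added. In Cd40-/- RANKL-Ab it was 3.39, 2.94 and 2.39, 4.05 with the mean over cells and 4.67 with 1 CPM added. Between the Cd40-/- libraries it was 1.52 without cells over 20000 UMIs and 1.54 without the members rich in Psmb11 and Prss16. For the ISGs, the median in Cd40-/- RANKL-Ab was -1.30 with 200 Ccl21a UMIs, -1.31 with the mean over cells, -1.49 with 1 CPM added and -1.36 at 50 CPM, and against Cd40-/- Control -1.46 with 1 CPM added. With 200 Ccl21a UMIs, 3 values changed sign: the median of the other immediate early genes in Cd40-/- RANKL-Ab was -0.040, the log2 ratio of Psmb11 in Cd40-/- Control -0.19 and that of Atf3 in Cd40-/- RANKL-Ab -0.91.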
